A study of Mus musculus with 6 samples.

Results

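The levels of 10 genes of RNA-binding proteins that regulate splicing and mRNA fate in neurons were measured in EGFP-positive cells sorted from mouse dorsal root ganglia (DRG) at 18.5 days post coitum. They were Elavl2, Elavl3 and Elavl4, Rbfox1, Rbfox2 and Rbfox3, Nova1 and Nova2, and Ptbp1 and Ptbp2, chosen by symbol and found by Ensembl identifier. All 10 were present among the 41388 genes listed for each library. The embryos were C57BL/6 and carried RetFloxedEGFP together with a Cre allele at Scn10a (labelled NaV1.8Cre), so that the reporter marks Ret-expressing cells in which the Scn10a locus had driven Cre. There were 3 female and 3 male libraries, lettered A to C in each sex, and all 6 shared this genotype, age and sort. Each was made from pooled ganglia, 40 from 2 embryos in the females and in male A, 60 from 3 embryos in male B, and 20 from 1 embryo in male C. All came from spinal levels T11-S1; the genotype field of male C names the Ret allele only, while its title also names the Cre allele. No library of EGFP-negative cells, of another age or of a manipulated regulator was analysed here, so the 6 libraries were read as 1 population and then compared by sex.

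Elavl genes encode the Hu proteins, which bind U-rich and AU-rich stretches of mRNA and affect its stability, translation and splicing; Elavl2, Elavl3 and Elavl4 (HuB, HuC and HuD) are the neuronal members. Rbfox proteins bind the motif UGCAUG in introns and promote or block inclusion of nearby exons according to their position, and Rbfox3 is the antigen known as NeuN. Nova proteins bind YCAY clusters and regulate exons of synaptic transcripts. Ptbp1 (PTB) represses many neuronal exons in non-neuronal cells and progenitors, and in the textbook account of neuronal differentiation it gives way to its paralog Ptbp2 (nPTB), which is itself an exon repressor.

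Library totals ran from 15693013 to 24033601 counted reads, with 19526 to 21755 genes having at least 1 read. The labelled cell type was checked against markers. Scn10a stood at 119 ± 16.8 RPKM and Ret at 27.8 ± 3.83 RPKM (reads per kilobase of gene and per 1000000 counted reads, mean ± SD, n = 6). Both loci define the sort, so their levels are not an independent check. The 11 nociceptor markers, which include both, summed to 4186 to 5633 CPM (counts per 1000000 counted reads) per library. The 9 pan-neuronal markers summed to 14590 to 18890 CPM. The 14 satellite glia and Schwann cell markers summed to 1807 to 2360 CPM, with Pmp22, Fabp7 and Apoe highest, and 8 fibroblast and meningeal markers to 432 to 731 CPM. The summed level of 6 immune markers was 1.01 to 1.69 CPM, and the spinal cord markers Olig2, Mnx1 and Pax2 had 0 reads in every library. Hemoglobin and other red blood cell markers summed to 1023 CPM in male A and to 34.7 to 185 CPM in the others. These are bulk libraries, so fewer cells of a type and less RNA per cell cannot be told apart, and glial RNA was part of what was measured.

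The members of each family are paralogs, and the sequences below show how much coding sequence each pair has in common, which bears on whether their counts can be separated. For each pair the longest identical stretch, searched over all annotated coding sequences of both genes, is given 5′ to 3′ on the coding strand. It is in lower case throughout because no base in it is singled out (GENCODE M21, GRCm38).
Elavl4 and Elavl2, 23 bases: accatgacccagaaggagctgga
Elavl4 and Elavl3, 29 bases: ttcggcttcgtcaccatgaccaactacga
Elavl2 and Elavl3, 17 bases: gacagcaagaccaacct
Rbfox1 and Rbfox2, 29 bases: accgtggtagagggccgtaaaatcgaggt
Rbfox1 and Rbfox3, 20 bases: caggatggattttatggtgc
Rbfox3 and Rbfox2, 14 bases: cgactacatgtctc
Nova1 and Nova2, 15 bases: gcagcagcagcagcc
Ptbp2 and Ptbp1, 14 bases: tacaacaatgataa
The Elavl4 and Elavl3 stretch lies at chr4:110206429-110206457 and chr9:22018600-22018628, both on the minus strand. The Rbfox1 and Rbfox2 stretch spans an exon junction in both genes, since its 29 bases cover chr16:7292251-7294071 on the plus strand and chr15:77102938-77105603 on the minus strand. Coding identity was taken over the aligned bases of each gene's longest annotated coding sequence. It was 75.1% to 77.9% among the Elavl genes, 67.5% to 70.6% among the Rbfox genes, 69.0% for the Nova pair and 70.0% for the PTB pair. No 50-base word of any annotated transcript of Elavl2, Elavl4, Rbfox1, Rbfox2, Rbfox3 or Ptbp2 occurred in a transcript of another gene. Such words made up 3.13% of those of Elavl3, 3.00% of Nova1, 30.8% of Nova2 and 18.3% of Ptbp1. For Nova2 and Ptbp1 the other genes were mainly overlapping ones on the opposite strand: 31.7% of the exonic bases of Nova2 overlap Gm26821, which had 0 reads, and 16.3% of those of Ptbp1 overlap E130317F20Rik, Gm17134 and Plppr3, which had 399, 0 and 7020 reads over the 6 libraries. Whether the counting used strand is not stated in the labels or notes, so the levels of Nova2 and Ptbp1 are uncertain to that extent. Counts were per gene, so isoforms were not measured.

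The 10 genes fell into 3 ranges of level. Elavl4, Rbfox1, Ptbp2 and Elavl2 stood between 85.9 and 188 RPKM, Rbfox3, Elavl3 and Rbfox2 between 19.2 and 24.2 RPKM, and Ptbp1, Nova1 and Nova2 at 1.66 RPKM or below. All 10 passed the low-count filter that kept 15026 genes, whose median mean level was 3.93 RPKM and 90th percentile 41.2 RPKM. Of the 10, 7 were above that median and 4 above that 90th percentile.

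**Figure D1:**
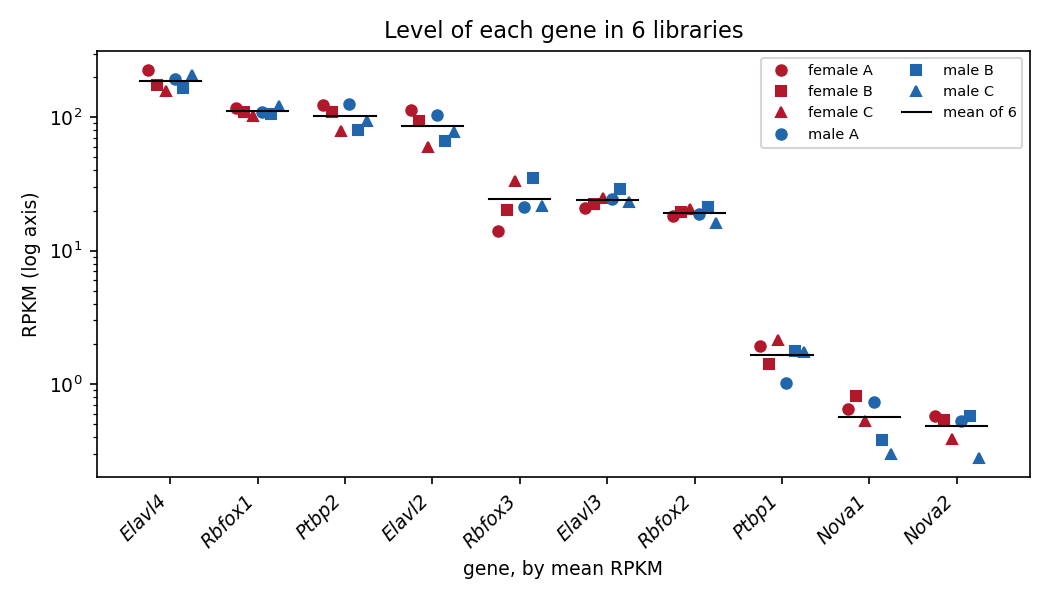
Level of each gene (RPKM, log axis) in the 3 female (red) and 3 male (blue) libraries, with a bar at the mean of 6 and genes ordered by that mean. Elavl4 is highest at 188 RPKM, and Ptbp1, Nova1 and Nova2 lie apart from the other 7 at 1.66 RPKM or below.

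Among the Hu genes, Elavl4 was highest and Elavl3 lowest in every library. Elavl4 (HuD; chr4:110203722-110351909, minus strand, deposited GRCm38.p2 coordinates) stood at 226, 176 and 158 RPKM in females A, B and C and at 193, 166 and 207 RPKM in males A, B and C. Its mean of 188 ± 25.7 RPKM lay at percentile 98.1 of tested genes. Elavl2 (HuB; chr4:91250763-91400785, minus strand) stood at 113, 94.0 and 59.8 RPKM in the females and at 104, 66.5 and 77.7 RPKM in the males, a mean of 85.9 ± 21.3 RPKM. Female C was lowest for both genes and female A highest, and the sexes overlapped. Elavl3 (HuC; chr9:22015005-22052023, minus strand) stood at 21.1, 22.3 and 24.9 RPKM in the females and at 24.3, 29.0 and 23.3 RPKM in the males, a mean of 24.1 ± 2.74 RPKM. Elavl4 exceeded Elavl2 by 1.15 ± 0.25 on the log2(RPKM + 0.1) scale (SD of 6 library differences; 2.22-fold) and Elavl3 by 2.95 ± 0.33 (7.72-fold), and Elavl2 exceeded Elavl3 by 1.80 ± 0.49 (3.47-fold). Each difference had the same direction in 6 of 6 libraries and an adjusted p of 0.04167 (exact two-sided sign-flip permutation test, n = 6, Benjamini-Hochberg over 8 pairs of paralogs), which rests on the smallest raw p that 6 libraries allow, 0.03125. The sizes depended on the length used: with the longest annotated transcript as the length, Elavl4 exceeded Elavl2 by 0.54 and Elavl2 exceeded Elavl3 by 2.78 on the log2 scale, and with no length (CPM) by 0.53 and 2.53, all passing the same test.

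Rbfox1 was the highest Rbfox gene and had the smallest coefficient of variation of the 10 before any GC correction. Rbfox1 (chr16:6809222-7412479, plus strand) stood at 117, 109 and 102 RPKM in females A, B and C and at 110, 106 and 121 RPKM in males A, B and C, a mean of 111 ± 7.02 RPKM. Rbfox2 (chr15:77078990-77307053, minus strand), which is also expressed widely outside the nervous system, stood at 18.3, 19.6 and 20.6 RPKM in the females and at 19.0, 21.3 and 16.3 RPKM in the males. Rbfox3 (chr11:118489762-118911597, minus strand), the NeuN gene, stood at 14.1, 20.2 and 33.1 RPKM in the females and at 21.3, 34.98 and 21.5 RPKM in the males. Female C and male B were the high libraries for Rbfox3 and female A the low one, with the sexes overlapping. Rbfox1 exceeded Rbfox2 by 2.53 ± 0.22 on the log2 scale (5.78-fold) and Rbfox3 by 2.26 ± 0.55 (4.78-fold), in 6 of 6 libraries each (adjusted p = 0.04167, exact sign-flip permutation test, n = 6). With no length the Rbfox1 and Rbfox2 difference was 1.71 and still passed. Rbfox3 and Rbfox2 differed by 0.27 ± 0.41, with Rbfox3 higher in 5 of 6 libraries, which did not pass (adjusted p = 0.1786, same exact test). With the longest annotated transcript as the length in place of the deposited one, which for Rbfox3 is 1.85 times that transcript, the same difference was 1.07 and passed (adjusted p = 0.03571, same exact permutation test).

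The PTB pair showed the widest gap within a family. Ptbp2 (nPTB; chr3:119718742-119783388, minus strand) stood at 124, 110 and 79.4 RPKM in females A, B and C and at 127, 79.8 and 93.3 RPKM in males A, B and C. Ptbp1 (chr10:79854427-79864771, plus strand) stood at 1.93, 1.42 and 2.13 RPKM in the females and at 1.01, 1.77 and 1.73 RPKM in the males. The lowest Ptbp2 library was thus far above the highest Ptbp1 library, and in each gene the sexes overlapped. Ptbp2 exceeded Ptbp1 by 5.87 ± 0.60 on the log2(RPKM + 0.1) scale (58.3-fold, range of the log2 difference 5.16 to 6.83), higher in 6 of 6 libraries (adjusted p = 0.04167, exact sign-flip permutation test, n = 6). The difference was 5.05 with the longest annotated transcript as the length, and passed. It was 5.26 with a pseudocount of 1, a change that cannot alter its sign in any library and so could not test it. Ptbp1 rested on 105 to 240 reads per library, and its 95% exact Poisson interval in the lowest library, male A, was 0.828 to 1.23 RPKM, which covers counting error only. The third paralog, Ptbp3, which is best known from blood cells, stood at 22.3 ± 3.65 RPKM (18.8 to 27.3), above the highest Ptbp1 library in every library.

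The start regions of Ptbp1 and Ptbp2 are shown as the regulatory sequence of the pair that differs most in level. Each is the RefSeq window (GRCm38.p6) that ends 50 bases into the gene, 300 bases on the gene's strand, with matches on either strand in capitals for 3 motifs, the GC box (GGGCGG), the CAAT box (searched as CCAAT) and the TATA box (searched as TATAAA). Ptbp1 lies at chr10:79854182-79854481 on the plus strand and Ptbp2 at chr3:119783339-119783638 on the minus strand.
Ptbp1 promoter window: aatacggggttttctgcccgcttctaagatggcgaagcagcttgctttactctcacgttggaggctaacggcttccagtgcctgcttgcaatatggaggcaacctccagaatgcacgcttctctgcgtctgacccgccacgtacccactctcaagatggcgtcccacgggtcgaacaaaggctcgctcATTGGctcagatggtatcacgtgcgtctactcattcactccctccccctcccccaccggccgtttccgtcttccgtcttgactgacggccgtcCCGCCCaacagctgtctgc
Ptbp2 promoter window: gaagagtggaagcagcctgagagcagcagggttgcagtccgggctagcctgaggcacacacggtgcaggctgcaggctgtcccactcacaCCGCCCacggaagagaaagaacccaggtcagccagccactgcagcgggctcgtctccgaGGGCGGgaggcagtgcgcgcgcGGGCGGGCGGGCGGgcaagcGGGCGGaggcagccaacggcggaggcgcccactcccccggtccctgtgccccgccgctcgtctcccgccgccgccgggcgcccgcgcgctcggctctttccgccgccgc
The Ptbp1 window holds 22 CG dinucleotides and the Ptbp2 window 36, against a median of 7 in 32817 promoter windows of this length, at the 76.9th and 93.8th percentiles. GGGCGG occurs in both windows, with copies that overlap one another in Ptbp2, and in 35.6% of all windows. CCAAT occurs in the Ptbp1 window and not in that of Ptbp2, and in 37.4% of all windows. TATAAA occurs in neither, and in 13.6% of all windows. These matches describe the letters only. The promoter table matched 9 of the 10 genes, all except Rbfox2.

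The Nova genes were the lowest 2 of the 10. Nova1 (chr12:46694517-46818775, minus strand) stood at 0.648, 0.813 and 0.528 RPKM in females A, B and C and at 0.731, 0.382 and 0.298 RPKM in males A, B and C, from 31 to 139 reads per library. Nova2 (chr7:18925888-18965319, plus strand) stood at 0.580, 0.538 and 0.391 RPKM in the females and at 0.530, 0.579 and 0.281 RPKM in the males, from 35 to 116 reads. Male C, a library of 1 embryo, was lowest for both, and the sexes overlapped in both. The means of 0.567 ± 0.201 and 0.483 ± 0.121 RPKM lay at percentiles 15.5 and 13.3 of tested genes. Nova1 and Nova2 differed by 0.16 ± 0.36 on the log2 scale, Nova1 higher in 5 of 6 libraries, which did not pass (adjusted p = 0.3125, exact sign-flip permutation test, n = 6). In male C the 95% Poisson intervals, 0.203 to 0.423 RPKM for Nova1 and 0.196 to 0.391 RPKM for Nova2, overlapped.

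Across families, 6 of the 9 neighbours in the order of mean RPKM passed, each with the same gene higher in 6 of 6 libraries. Their adjusted p was 0.04688 (exact sign-flip permutation test, n = 6, Benjamini-Hochberg over 9 pairs). It rests on the smallest raw p that 6 libraries allow, 0.03125. The order, and so the choice of pairs, was taken from the same libraries that were tested. The pairs that passed included Elavl4 over Rbfox1, by 0.75 ± 0.12 on the log2 scale, and Rbfox2 over Ptbp1, by 3.48 ± 0.37, the largest step in the order (11.1-fold). Rbfox1 and Ptbp2 did not pass this test (0.14 ± 0.27, Rbfox1 higher in 3 of 6 libraries, adjusted p = 0.3214), nor did Rbfox3 and Elavl3 (-0.06 ± 0.35, adjusted p = 0.6875, exact permutation test) or the Nova pair (adjusted p = 0.3516). With the longest annotated transcript as the length, 8 of the 9 pairs passed, among them Rbfox1 over Ptbp2 by 0.85 and Rbfox3 over Elavl3 by 0.82 (adjusted p = 0.03516 each, same exact permutation test). Rbfox1 over Ptbp2 also passed with no length (0.45) and with the GC trend described below removed (0.15), each with an adjusted p of 0.04688 in the exact permutation test. Ptbp2 exceeded Elavl2 by 0.26 ± 0.09, and this order depended on the length used: with the longest annotated transcript as the length, Ptbp2 was lower than Elavl2, with a log2 difference of -0.99, and with the GC trend removed the difference was 0.26 and did not pass (adjusted p = 0.08036, exact permutation test). The deposited length of Elavl2 is 1.98 times that transcript and that of Ptbp2 is 0.831 times it. With no length, Elavl3 was below Rbfox2 (-0.22, adjusted p = 0.04688, exact permutation test) and Rbfox2 exceeded Ptbp1 by 4.18. Ptbp1 over Nova1, 1.43 ± 0.71 per length, was 1.02 with no length and did not pass (adjusted p = 0.08036, exact permutation test). It was 0.76 with a pseudocount of 1, a change that cannot alter the sign in any library and so could not test it.

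The low and the high genes were set beside 98 other genes in 5 lists of RNA-binding proteins and splicing regulators. Rest, in the list of other splicing regulators, encodes a transcriptional repressor rather than an RNA-binding protein. The median mean level was 24.2 RPKM for the 10 genes, 7.26 RPKM for 5 Hu, PTB and Rbfox partner genes, 4.09 RPKM for 27 other splicing regulators, 14.2 RPKM for 25 hnRNP genes, 16.9 RPKM for 16 SR protein genes and 10.7 RPKM for 25 regulators of mRNA localisation and translation. Elavl1 (HuR), the ubiquitous Hu gene, stood at 7.26 ± 0.931 RPKM, under all 3 neuronal Hu genes in level. Matr3, whose product works with PTB, stood at 56.6 ± 18.8 RPKM and the PTB cofactor Raver2 at 0.474 ± 0.142 RPKM. Of the other splicing regulators, the muscleblind genes Mbnl2 (115 ± 13.6 RPKM) and Mbnl1 (34.2 ± 6.19 RPKM) and Celf4 (21.8 ± 4.95 RPKM) were highest, and the muscle regulator Rbm24 was lowest with 0 to 2 reads per library. Hnrnpa2b1 (181 ± 19.3 RPKM), Pcbp3 (163 ± 25.5 RPKM) and Hnrnpk (117 ± 12.5 RPKM) led the hnRNP genes and Hnrnpll (1.99 ± 0.288 RPKM) was lowest. Srsf7 (173 ± 31.5 RPKM), Srsf2 (78.4 ± 17.4 RPKM) and Srsf5 (56.9 ± 6.70 RPKM) led the SR protein genes, while Srsf1 was listed with only 1 to 3 reads per library. Of the 50-base words of Srsf1, 0.882% occurred in a transcript of another gene. The treatment of reads with several matches is not stated in the labels or notes, and the cause of this low count was not tested. Rbms3 (91.1 ± 14.4 RPKM), the stress granule gene G3bp2 (70.6 ± 6.07 RPKM) and Fxr1 (36.9 ± 6.36 RPKM) led the last list, and Lin28a was lowest with 0 to 9 reads per library.

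**Figure D2:**
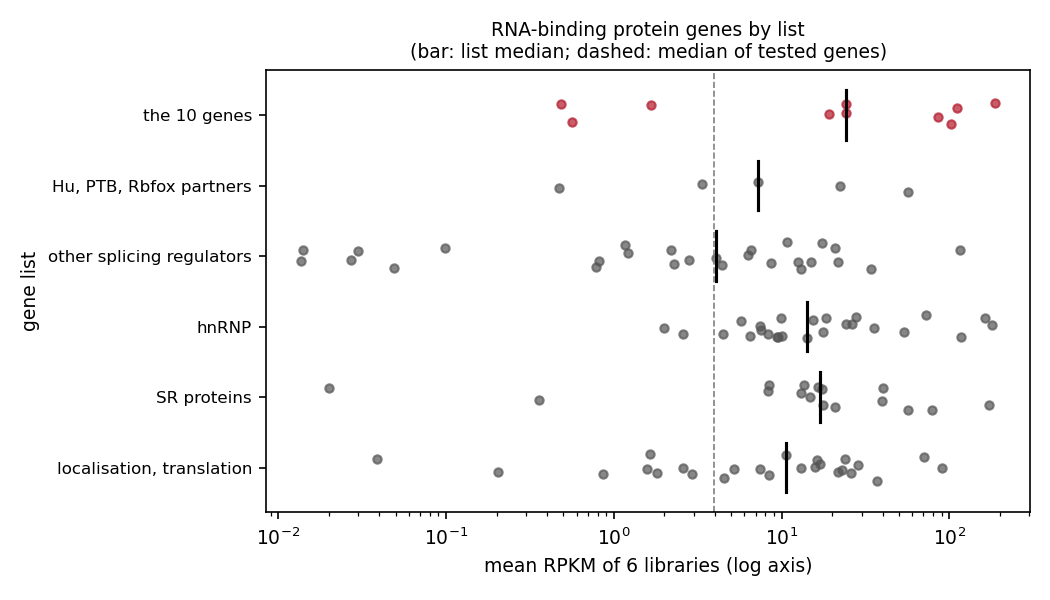
Mean RPKM over 6 libraries (log axis) of the 10 genes (red) and of 98 other genes in 5 lists of RNA-binding proteins and splicing regulators (grey). Each point is a gene, with a bar at each list's median and a dashed line at the 3.93 RPKM median of tested genes. The 10 genes lie in 2 separate bands, 7 at 19.2 RPKM or above and 3 at 1.66 RPKM or below.

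The spread between libraries differed widely among the 10. The coefficient of variation of the TMM-scaled level was 6.32% for Rbfox1, at percentile 1.92 of tested genes, 9.39% for Rbfox2, 11.3% for Elavl3 and 13.7% for Elavl4. It was 20.7% for Ptbp2, 23.8% for Ptbp1, 24.8% for Elavl2, 24.97% for Nova2, 33.5% for Rbfox3 and 35.5% for Nova1. The median over the 10 was 22.2%, beside 21.0% over all tested genes. Read counting alone gives 12.2% for Nova1, 11.7% for Nova2 and 8.15% for Ptbp1, and 2.05% or less for the other 7.

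The deviations of the more variable high genes followed the order of the libraries on the first principal component of all tested genes, which held 37.3% of the variance. Male B and female C were at one end of that component and female A, male A and female B at the other. Ptbp2 and Elavl2 were higher in the last 3 libraries and lower in male B and female C, and Rbfox3 was the reverse: in female A it lay 0.70 below its mean and in male B 0.60 above on the log2(RPKM + 0.1) scale. Over the 6 libraries, as a description, Elavl2 and Ptbp2 had a Pearson r of 0.98, Elavl4 and Rbfox1 one of 0.91, and Elavl2 and Rbfox3 one of -0.91; these points share their libraries and scaling. Across 14938 genes, which are not independent replicates, the loading on the component correlated with the GC content of the gene's transcripts (Spearman rho 0.625). The transcripts of Nova1 (39.0% GC), Elavl4 (41.6%), Ptbp2 (42.1%) and Elavl2 (46.0%) were the poorest in GC of the 10 and those of Rbfox3 (58.5%) the richest. Their loadings lay at percentiles 6.39, 24.0, 7.83, 4.34 and 93.9 in that order. Loadings did not follow GC content throughout the 10. Nova2 (56.3%) lay at percentile 35.4 and Rbfox1 (53.1%) at 40.9, while Ptbp1 (56.3%), Elavl3 (55.7%) and Rbfox2 (50.3%) lay at 76.6, 69.9 and 62.5. With the trend on GC content removed in each library, the coefficient of variation was 9.28% for Ptbp2, 17.1% for Elavl2 and 15.6% for Rbfox3, and the median over the 10 was 13.8% beside 18.1% over all tested genes. It was lower than before in 7 of the 10 and higher in Rbfox1 (9.39%), Rbfox2 (10.3%) and Nova2 (32.6%), and Elavl3 was then the steadiest of the 10 at 7.88%. The part of RNA quality or amplification in this pattern was not tested.

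**Figure D3:**
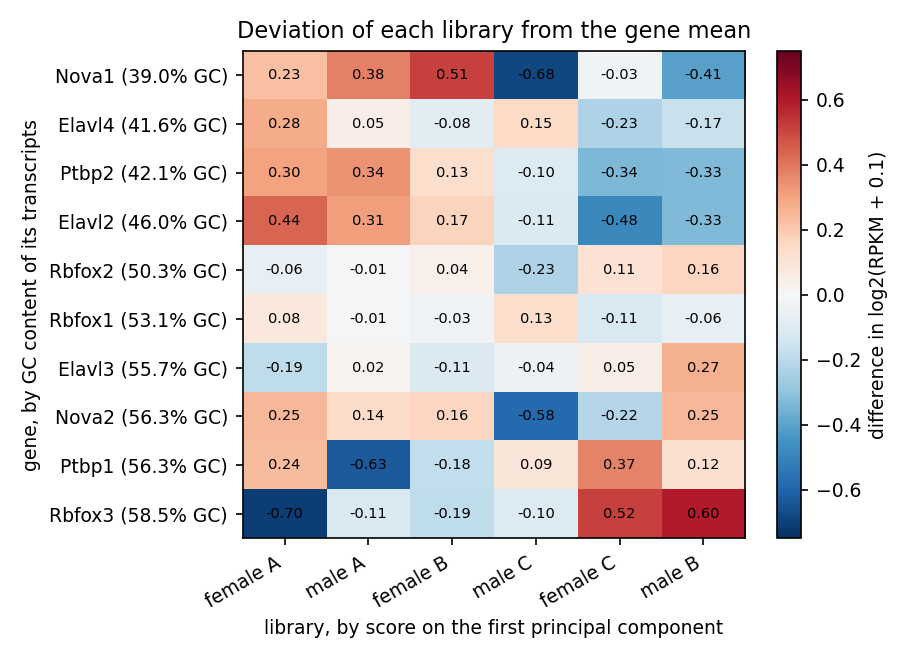
Difference of each library from the gene's mean in log2(RPKM + 0.1), genes in rows by the GC content of their transcripts and libraries in columns by their score on the first principal component. Ptbp2 and Elavl2 run from positive values at the left to negative values at the right, and Rbfox3 runs from -0.70 in female A to 0.60 in male B.

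**Figure D4:**
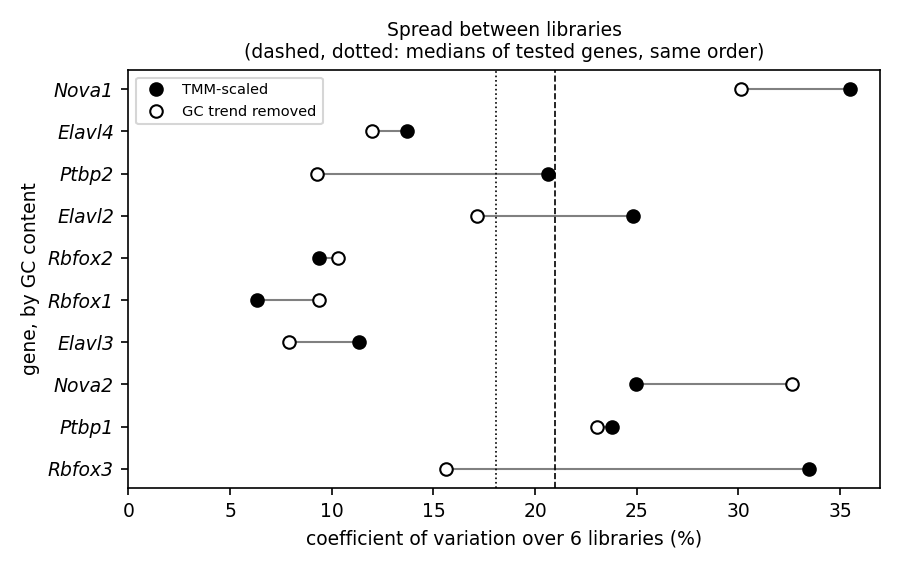
Coefficient of variation over 6 libraries (percent) of each gene, TMM-scaled (filled) and with the GC trend removed (open), with the medians of tested genes at 21.0% (dashed) and 18.1% (dotted). Ptbp2, Elavl2 and Rbfox3 move furthest to the left, and Nova2, Rbfox1 and Rbfox2 to the right.

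Since Ptbp1 is known from non-neuronal cells, each gene's level was set against the summed glial markers, which were 2034, 1807 and 2213 CPM in females A, B and C and 1964, 2360 and 2255 CPM in males A, B and C. None of 10 relations passed adjustment over the 10 genes. Ptbp1 had a Pearson r of 0.57 (exact permutation p = 0.2389, adjusted p = 0.3981, n = 6 libraries) and a Spearman rho of 0.49 (exact permutation p = 0.3556, adjusted p = 0.5926), and r was 0.68 without female B and male B, the libraries farthest from the median glial level. Ptbp2 had an r of -0.77 (exact permutation p = 0.09167, adjusted p = 0.3576, n = 6) and a rho of -0.66 (exact permutation p = 0.175, adjusted p = 0.4833), with r = -0.90 without those libraries. On this sum Nova1 had the lowest p, with an r of -0.88 (exact permutation p = 0.02222, adjusted p = 0.2222, n = 6) and a rho of -0.94 (exact permutation p = 0.01667, adjusted p = 0.1667), and r was -0.87 without those libraries. With the median over glial genes in place of the sum, r was -0.55 for Nova1 (adjusted p = 0.3351, exact permutation test). It was 0.62 for Ptbp1 and -0.83 for Ptbp2 (adjusted p = 0.3351 and 0.2014, same test), and none of the 10 passed. Male B, the library with the highest glial sum, also stood at one end of the principal component described above, and the 2 cannot be told apart with 6 libraries.

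Between the sexes, none of the 10 genes was called. The overlap of the sexes given for single genes above is a description, with no share over all tested genes beside it. Across the 15026 genes tested with edgeR's quasi-likelihood test, 5 were called at an adjusted p below 0.05 (0.0333%), namely Xist, higher in the females, and Ddx3y, Eif2s3y, Uty and Kdm5d, higher in the males, and 166 had an unadjusted p below 0.05. Of the 10 genes, 0 were called by edgeR, DESeq2 or limma-voom and 0 had an unadjusted p below 0.05 in any of these fits to all 6 libraries, with an adjusted p of 0.9997 for each in edgeR. The largest difference was in Nova1, at 0.663 ± 0.143 RPKM in females and 0.470 ± 0.230 RPKM in males (SD, n = 3 each), a log2 fold change of 0.49 with a 95% interval from -0.34 to 1.31. Ptbp1 had 1.82 ± 0.366 RPKM in females and 1.51 ± 0.427 RPKM in males (log2 fold change 0.28, interval -0.37 to 0.92), and Rbfox3 22.5 ± 9.66 and 25.9 ± 7.84 RPKM (-0.21, interval -0.89 to 0.47). The intervals were narrowest for Rbfox1, from -0.37 to 0.28, and for Elavl3, from -0.53 to 0.19. Of the 10 log2 fold changes, 6 were above 0 and 4 below, with a median of 0.05, beside -0.005 over all tested genes. Of the 98 genes in the 5 other lists, 91 were tested, 0 were called and 4 had an unadjusted p below 0.05, with a median log2 fold change of 0.07. These 4 were Tia1 (0.62 ± 0.18 SE), Rbm5 (0.41 ± 0.16), Hnrnph3 (0.51 ± 0.19) and Lin28b (0.77 ± 0.32), all with an adjusted p of 0.9997 by edgeR's test. Single libraries moved the values of Nova1 and Rbfox3 most. Without male A the Nova1 log2 fold change was 0.96 with an edgeR adjusted p of 0.9433 (0.02276 unadjusted). Without female C that of Rbfox3 was -0.60 with an edgeR adjusted p of 0.7818 (0.03947 unadjusted).

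**Figure D5:**
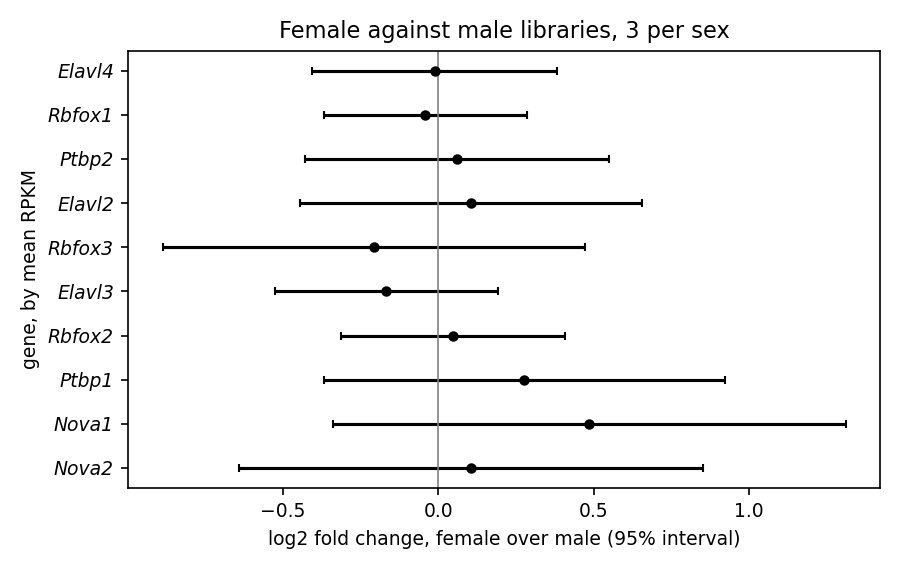
Log2 fold change, female over male, of each gene from edgeR's fit to 3 female and 3 male libraries, with its 95% interval. Every interval includes 0; the Nova1 interval, from -0.34 to 1.31, is the widest.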

How the data were processed

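RNA sequencing of 6 libraries of sorted DRG cells was analysed. Per the labels' protocols, cDNA was made from 10 ng of total RNA with a SMARTer low-input kit and library PCR ran for 12 cycles. For each gene of a library the authors deposited raw counts with CPM and RPKM; per the submitters' processing notes, counting used featureCounts 1.4.5 of Subread on GRCm38.p2. Aligner settings, strandedness and multi-mapping rules: not given in the sources used here. Deposited CPM and RPKM equal values recomputed from the deposited counts, within a relative tolerance of 1e-06, and served for that check and as 1 alternative scaling.

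Identifiers were named from GENCODE M21 (40254 of 41388 matched, 97.26%). Library sizes were scaled with TMM factors (0.9474 to 1.037; edgeR 4.0.16, R 4.3.3), and RPKM used the deposited gene length. Genes were compared within libraries on log2(RPKM + 0.1), which understates differences of low genes, by exact two-sided sign-flip permutation tests (64 flips), with Benjamini-Hochberg adjustment; 5 libraries cannot give a p under 0.0625. Sexes were compared with edgeR's quasi-likelihood test after filterByExpr, adjusted over 15026 genes; DESeq2 1.42.0 and limma-voom (limma 3.58.1) were alternatives. Glial relations used log2 CPM and all 720 pairings. The GC trend was a lowess fit (span 0.3) per library. Sequences came from GENCODE M21 transcripts and RefSeq promoters; a word length of 50 was chosen here. Poisson intervals cover counting error only. Intervals of log2 fold changes come from edgeR's quasi-likelihood fit, which includes the spread between libraries.

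The 10 genes and the lists were chosen with earlier results of these data known. The text names all 10 genes, and of each companion list the 3 highest and the lowest. It adds the 2 of smallest unadjusted p between sexes where these add to the comparison. Of the marker lists it names the 3 highest glial genes and the zero-count spinal cord genes, and Scn10a, Ret and Elavl1 were added by role. Sums of the endothelial and pericyte, skeletal muscle and cycling cell markers were computed and are not given. The libraries came from different embryos, and p-values measure the spread between them. Alternatives covered scaling, length, filter, tool, block, covariate and each library left out.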

Additional observations from a re-analysis of the deposited data

How the results depend on the processing

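No member of the 10 genes was called between sexes under any of 16 alternatives to the edgeR fit. Ptbp2 over Ptbp1, the 3 Hu pairs and Rbfox1 over Rbfox2 and Rbfox3 passed under every change of length or GC trend. A change of library scaling all but cancels in a difference within a library. A change of pseudocount alters the size of a difference but not its sign. The raw p of these pairs rests on every library having the same sign, so neither change could test them. Leaving out a library left 5, for which no pair can pass, so those were values with no test. Without a filter 12 of 25803 genes were called between sexes, in place of 5; leaving out any 1 library gave 5 each time. With the GC trend removed, an alternative chosen after seeing the data, the median coefficient of variation of the 10 was 13.8% in place of 22.2%, against 17.6% to 23.8% when a library was left out.

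The order of near neighbours depended on length. With the longest annotated transcript as the length, the log2 difference was -0.99 for Ptbp2 minus Elavl2 and 0.82 for Rbfox3 minus Elavl3, both past the threshold (adjusted p = 0.03516, exact permutation test). With no length (CPM) it was -1.04 for Ptbp2 minus Elavl2, 0.15 for Rbfox3 minus Elavl3, -0.22 for Elavl3 minus Rbfox2, -0.066 for Nova1 minus Nova2 and -0.064 for Rbfox3 minus Rbfox2. Rbfox3 minus Elavl3 ran from -0.15 to 0.046 with a library left out. With the median glial gene as the measure, r for Nova2 was 0.054; with a library left out, r against the glial sum ran from -0.55 to 0.039 for Elavl4, from -0.45 to 0.20 for Rbfox1 and from -0.38 to 0.68 for Rbfox2. Between sexes, the log2 fold change with the GC trend removed was 0.0061 for Rbfox1 and -0.052 for Ptbp2. With a library left out it ran from -0.11 to 0.32 for Elavl2, -0.17 to 0.092 for Elavl4, -0.093 to 0.015 for Rbfox1, -0.049 to 0.15 for Rbfox2, -0.60 to 0.071 for Rbfox3, -0.14 to 0.29 for Nova2 and -0.080 to 0.27 for Ptbp2. Apart from the length pairs above, no difference that changed sign had passed in the form reported or passed in the changed one; the cause of those sign changes was not tested.

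The letters A to C are shared by the sexes, but same-lettered libraries did not deviate together (r = 0.284, -0.294 and -0.0773), so the letters were not read as pairs. With the letter as a replicate block, 5 genes were called, in place of 5, and 0 of the 10. Depth limits Nova1, Nova2 and Ptbp1, which rested on 31 to 240 reads per library.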
